A study of Rattus norvegicus with 19 samples.

Results

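Liver transcripts of rats exposed to 50 mg/kg per day of DE-71 were compared with those of vehicle rats. DE-71 is a commercial mixture of pentabromodiphenyl ethers that was used as a flame retardant. All 5 arrays titled 50 mg/kg and all 5 vehicle arrays were taken, by the sample titles, 10 of the 19 arrays in the series. All 31042 probe sets that are not Affymetrix controls were compared, and no measured value entered the choice of arrays. The dams were timed-mated females of the Wistar Han strain, Crl:WI(Han), bought at 11 to 12 weeks of age. The vehicle group received corn oil alone by gavage at 5 mL/kg per day, and the treated group received the same volume of corn oil with DE-71. Dosing of the dams ran from gestation day 6 to postnatal day 4. RNA came from the left lateral lobe of the liver on postnatal day 4 and was hybridised to Affymetrix Rat230_2 arrays. The other arrays carried 0.1 mg/kg (5 arrays) and 15 mg/kg (4 arrays) and entered the fit as their own groups.

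The labels give the sex as female and do not say whether the livers are those of dams or of pups, nor that the arrays of a group are separate animals or litters. The p-values therefore measure the spread between these samples. The Y-linked transcript Eif2s3y read 9.55 to 10.07 on all 19 arrays and Xist, the RNA of an inactive X chromosome, read 3.88 to 4.29, which goes against the label female for the sampled animals. Hepatocyte markers were high on all 10 arrays, with a mean log2 level of 13.44 to 13.68 in vehicle and 13.53 to 13.65 at 50 mg/kg over 14 hepatocyte markers. Alpha-fetoprotein (Afp), a plasma protein of the fetal and newborn liver, stood at 14.62 ± 0.0354 in vehicle and 14.56 ± 0.063 at 50 mg/kg (mean log2 ± SD, n = 5 each).

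As background, brominated diphenyl ether mixtures act on liver mainly through nuclear sensors of foreign chemicals. The aryl hydrocarbon receptor (AhR) drives the Cyp1 enzymes and Nqo1, and the receptors CAR and PXR drive Cyp2b, Cyp2c and Cyp3a enzymes, glucuronosyltransferases and export pumps. NRF2, a sensor of electrophiles, drives enzymes of glutathione and NADPH supply. Most of the oxidising and conjugating enzymes sit in the membrane of the endoplasmic reticulum (ER), which is also where the liver folds the plasma proteins it secretes. The newborn liver still makes blood cells, so that granulocyte and red cell transcripts are a regular part of it.

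The deposited values are log2 levels, so a difference of 1 is a 2-fold change. A probe set was called where limma's moderated test, adjusted by Benjamini-Hochberg over all 31042 probe sets, gave a p under 0.05. At 50 mg/kg 499 probe sets were called (1.61% of all tested), 380 higher (1.22%) and 119 lower (0.383%). Of these, 411 carried 1 gene symbol, 17 several and 71 none. In 157 of the higher and 52 of the lower probe sets the change was over 1.5-fold. At an unadjusted p under 0.05 in limma stood 4791 of the 31042 probe sets. The unadjusted counts of gene lists below are to be read against that share. Counted by gene, with 1 probe set for each of 14217 genes, 254 genes were higher (1.79%) and 63 lower (0.443%), and the median log2 fold change over all genes was 0.01. In 239 of the higher genes the lowest treated array exceeded the highest vehicle array, and in 52 of the lower genes the reverse held. Over all genes the groups were separate in this way in 4.35% upward and 1.48% downward.

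A few arrays and their numbers bear on every count that follows. Vehicle replicate 2 and 0.1 mg/kg replicate 2 were almost the same array by value (Pearson r = 0.9986 and a median absolute log2 difference of 0.07 over all probe sets, against r = 0.9966 for the next closest pair), although the labels put them in different groups. Both read high in kidney and pancreas transcripts, such as the kidney protein uromodulin (Umod, 9.58 and 9.53, with a median of 4.36 over the 19 arrays). The library labelled 0.1 mg/kg replicate 1 read 14.06 in Cyp1a1, near the treated mean of 14.20. Without these 3 arrays 493 probe sets were called, 363 higher and 130 lower, and 378 of them were also among the 499. The descriptions number the arrays from 1 to 20 without saying what the number stands for, and 4 of the 5 treated arrays but 1 of the 5 vehicle arrays are numbered 8 or below. With low and high array numbers as a block 57 probe sets were called, 52 higher and 5 lower, of which 56 were among the 499. With the block and without the 3 arrays the count was 216, 157 higher and 59 lower. Among the low numbers the vehicle group has 1 array, and among the high numbers the 50 mg/kg group has 1, so neither side gives a spread for both groups.

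**Figure D1:**
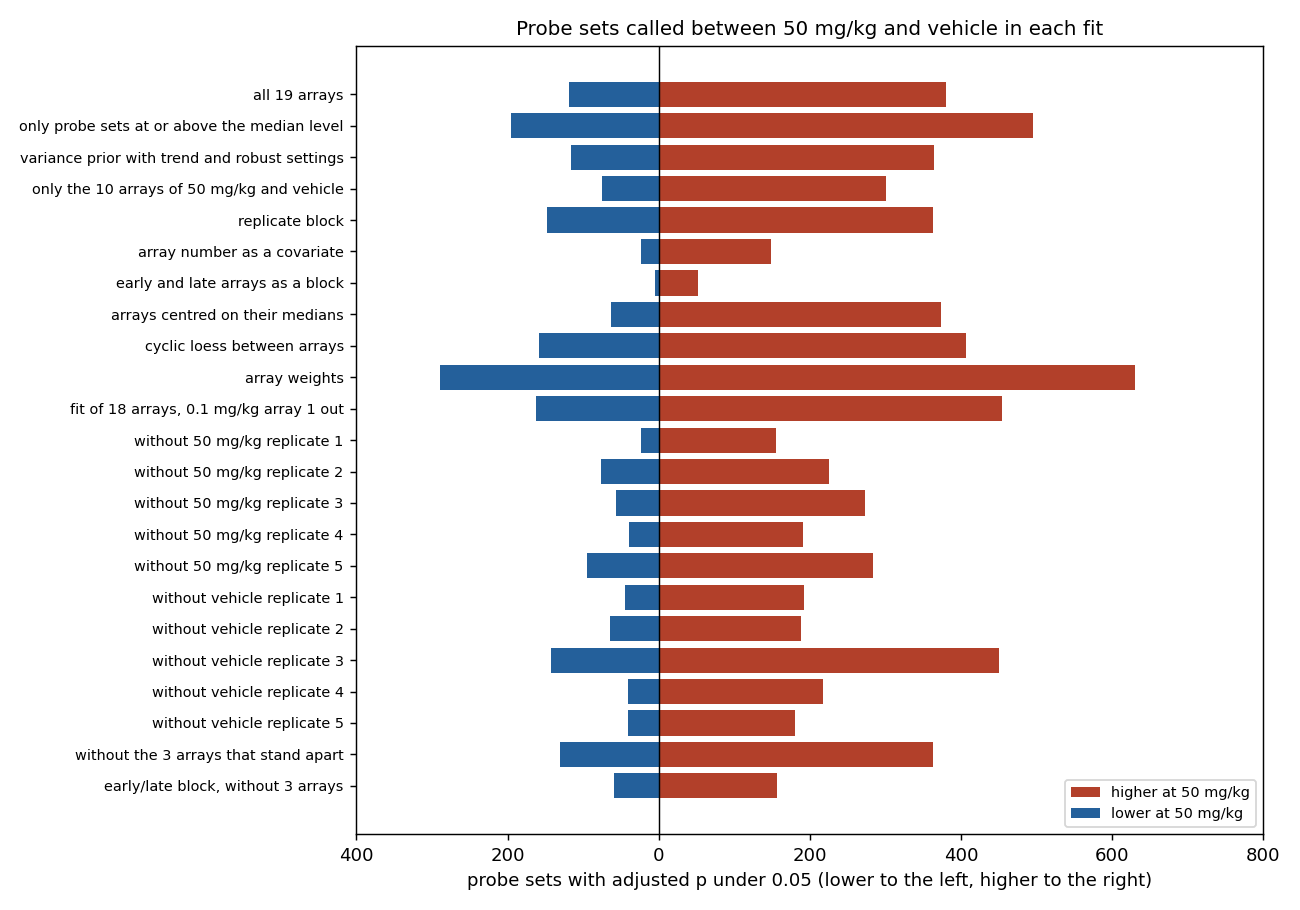
Probe sets called between 50 mg/kg and vehicle in each fit, with those higher at 50 mg/kg to the right and those lower to the left of 0 (x axis, number of probe sets). The count runs from 57 with low and high array numbers as a block to 921 with array weights, and from 178 to 593 when 1 of the 10 arrays is left out. More probe sets are higher than lower in every bar.

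Single arrays also moved the count. Treated replicates below are those at 50 mg/kg, and control replicates are those of the vehicle group. It was 178, 301, 330, 230 and 379 without 50 mg/kg replicates 1 to 5, and 237, 253, 593, 259 and 222 without vehicle replicates 1 to 5. For this reason the genes below were read first by whether they passed in all 10 of these fits. Of 133 genes named by the rule and called, 59 passed in all 10, 113 passed without the 3 arrays above, and 28 passed with the block. These 28 passed in each of the 23 alternative fits that included them.

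The xenobiotic lists held the largest changes. Over 5 lists (targets of AhR, of CAR and PXR, and of NRF2, glucuronate supply, and P450 reduction and heme supply) 29 of 79 measured genes were higher (36.7%, against 1.79% of all genes) and none lower. The count was 20, 24, 22, 21 and 27 without 50 mg/kg replicates 1 to 5, 20 to 25 without each vehicle replicate, 31 without the 3 arrays and 13 with the block. The P450 enzymes Cyp1a1 and Cyp1a2 led with rises of 91.3-fold and 53.8-fold. Of the 8 measured genes of glucuronate supply 1 was higher, and of the 17 of P450 reduction and heme supply 4 were.

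Single enzymes of conjugation and single export pumps were among the called genes. Abcc3, a pump that moves conjugates from the hepatocyte back to blood, read 8.67, 8.23, 8.38, 8.83 and 8.78 in vehicle replicates 1 to 5 and 10.49, 10.30, 10.88, 10.44 and 10.34 in 50 mg/kg replicates 1 to 5. The groups lay well apart, and the rise was 3.76-fold (log2 fold change 1.91, SE 0.299, limma adjusted p = 0.00369). Abcc2, the pump for conjugates into bile, rose 2.34-fold (1.23, SE 0.167, limma adjusted p = 0.00123), from 8.65 to 9.31 in vehicle to 9.86 to 10.43 at 50 mg/kg. The carboxylesterase Ces2c rose 3.37-fold, from 5.75 to 6.32 up to 7.13 to 8.19. Epoxide hydrolase Ephx1, which opens the epoxides that P450s make, rose 2.77-fold, with 11.13 to 11.61 in vehicle against 12.62 to 13.13. The glucuronosyltransferases Ugt2b34l1, Ugt2b1 and Ugt2b15 rose 2.47-, 2.05- and 2.06-fold, and Ugdh, which makes the glucuronate donor, rose 1.62-fold. Each of these genes passed in all 10 fits that left out 1 array. All but Ugdh also passed with the block, where Ugdh had an adjusted p of 0.06 in limma.

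The second largest rise outside the P450s among genes that passed in all 10 such fits was listed under a chaperone. Dnajb3 read 5.09, 5.67, 5.01, 5.65 and 5.20 in vehicle and 6.86, 7.21, 8.02, 7.67 and 7.39 at 50 mg/kg, a 4.30-fold rise (log2 fold change 2.10, SE 0.337, limma adjusted p = 0.00428). With the block its adjusted p was 0.053. In RefSeq (GRCr8) the span of Dnajb3 overlaps 7 glucuronosyltransferase genes (Ugt1a2, Ugt1a3, Ugt1a5, Ugt1a6, Ugt1a7c, Ugt1a8 and Ugt1a9). Signal of the Ugt1a transcripts and of Dnajb3 cannot be told apart from this annotation.

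Nqo1, which reduces quinones with NADPH or NADH, was the largest riser outside the P450s. It read 8.13, 8.55, 8.15, 8.16 and 8.12 in vehicle and 12.04, 10.80, 11.46, 10.77 and 10.27 at 50 mg/kg. The lowest treated array stood clear of the highest vehicle array, and the rise was 7.19-fold (log2 fold change 2.85, SE 0.368, limma adjusted p = 0.00123). Around it the redox list was mixed in strength. Of 27 measured NRF2 targets 10 were higher and none lower (37%), with a median of 0.41. The thiol reductase glutaredoxin (Glrx) rose 2.23-fold, from 10.45 to 10.77 up to 11.42 to 12.07, and malic enzyme (Me1), a source of NADPH, rose 2.33-fold, from 7.11 to 7.41 up to 7.94 to 9.0. The glutathione transferase Gstm1 rose 2.44-fold and pirin (Pir), an iron-binding nuclear protein, 2.41-fold. Nqo1, Glrx and Me1 passed with the block. Pir and Gstm1 had adjusted p-values of 0.0524 and 0.0663 there. Thioredoxin reductase (Txnrd1) rose 1.40-fold (limma adjusted p = 0.0226), a call lost without treated replicate 1 or 4 or control replicate 1 (adjusted p = 0.0504, 0.0657 and 0.0566) and with the block (0.0942). With the block 5 of the 27 passed.

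In the list of heme and electron supply 4 of 17 measured genes were higher, Alas1, Por and Pgrmc1 among them. Alas1, the rate-limiting enzyme of heme synthesis in liver, read 10.63, 10.37, 11.00, 11.01 and 11.20 in vehicle and 12.34, 12.23, 12.60, 12.38 and 12.21 at 50 mg/kg. It rose 2.85-fold (log2 fold change 1.51, SE 0.211, limma adjusted p = 0.00159) and passed in all 23 other fits. Por, the reductase that passes electrons to the P450s, rose 2.49-fold, from 9.24 to 9.92 up to 10.27 to 11.40, with an adjusted p of 0.0094 and of 0.0821 with the block. Pgrmc1, a heme-binding partner of P450s, rose 1.36-fold, with an adjusted p of 0.104 with the block. The 13 other genes of this list did not pass. Heme oxygenase 1 (Hmox1), which breaks heme down, had a log2 fold change of -0.38 (SE 0.134, limma adjusted p = 0.168).

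Promoters of 3 risers are shown because they carry a short motif named after the AhR or NRF2 response. They are not typical of all strong risers. The promoter of Cyp1a2 held no AhR core, and those of Nqo1, Glrx, Gstm1 and Txnrd1 held no antioxidant element. That of Cyp1b1 held 2 AhR cores and that of Me1 held 1 antioxidant element. The Cyp1b1 call was lost without treated replicate 1, 3 or 5 or any single control replicate (limma adjusted p from 0.0584 to 0.131). It was lost with the block too. The 3 shown promoters are given as follows. They are RefSeq sequences of build GRCr8, 250 bases before to 50 bases after the start of the gene, 5′ to 3′ along the gene. Capitals mark the AhR core GCGTG in Nqo1 and Tnfaip8l1 and the antioxidant element TGACNNNGC (N is any base) in Pir. Both were searched on either strand, and matches of 1 motif may overlap those of the other. The Pir promoter also holds 1 AhR core (read as CACGC). It begins within the capitals of the antioxidant element at -9 and runs on into lower case. Nqo1 lies at chr19:52220218-52220517 on the minus strand, with its motif at -10 to -6 from the start. Tnfaip8l1 lies at chr9:1075579-1075878 on the plus strand, with motifs starting at -158 and -29. Pir lies at chrX:33851000-33851299 on the minus strand, with motifs starting at -114 and -9.
Nqo1: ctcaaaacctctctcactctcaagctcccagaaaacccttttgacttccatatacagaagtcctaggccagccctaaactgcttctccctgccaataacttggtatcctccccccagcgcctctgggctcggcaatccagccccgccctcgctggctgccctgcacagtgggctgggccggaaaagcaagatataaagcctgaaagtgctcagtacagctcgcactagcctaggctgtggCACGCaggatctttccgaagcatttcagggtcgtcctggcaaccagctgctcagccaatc
Tnfaip8l1: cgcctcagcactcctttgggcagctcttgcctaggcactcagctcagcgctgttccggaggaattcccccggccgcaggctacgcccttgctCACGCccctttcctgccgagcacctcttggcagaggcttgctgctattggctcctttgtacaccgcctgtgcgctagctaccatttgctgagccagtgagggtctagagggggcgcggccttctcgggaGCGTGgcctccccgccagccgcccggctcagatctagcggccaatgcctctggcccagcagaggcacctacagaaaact
Pir: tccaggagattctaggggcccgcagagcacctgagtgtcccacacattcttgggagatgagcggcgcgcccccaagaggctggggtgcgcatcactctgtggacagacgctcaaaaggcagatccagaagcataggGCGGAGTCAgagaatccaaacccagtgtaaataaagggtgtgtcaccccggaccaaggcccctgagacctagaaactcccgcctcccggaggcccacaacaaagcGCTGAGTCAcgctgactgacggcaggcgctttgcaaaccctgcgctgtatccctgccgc
The AhR core stood in 31.1% of all 27457 promoters of the table and in 45.8% of the 11700 genes on the array that had one. It stood in 52.8% of the 212 higher genes and in 48.1% of the 54 lower genes with a promoter. The antioxidant element stood in 14.4% of the genes on the array, in 15.6% of the higher and in 16.7% of the lower genes. A match is a description of letters and does not show binding.

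Further risers with no drug-metabolising role were among the steadiest. Mgarp, a mitochondrial protein first described in steroid-making cells, read 7.43, 7.63, 7.60, 6.92 and 7.00 in vehicle and 8.76, 8.31, 8.78, 8.85 and 8.40 at 50 mg/kg (2.47-fold, log2 fold change 1.30, SE 0.167, limma adjusted p = 0.00123). Its groups did not overlap, and the 15 mg/kg arrays (7.29 to 7.73) overlapped the vehicle values and lay below all arrays at 50 mg/kg. Tnfaip8l1, a relative of the TNF-induced protein TNFAIP8, read 5.39, 5.25, 5.63, 5.68 and 5.38 in vehicle and 6.62, 6.79, 6.48, 6.66 and 6.55 at 50 mg/kg (2.22-fold, log2 fold change 1.15, SE 0.135, limma adjusted p = 0.000893). Its 5 treated values spread by little, and the 15 mg/kg arrays again lay lower, at 5.43 to 6.03. The span of Tnfaip8l1 overlaps that of Mydgf in RefSeq. Sgpl1, the lyase that breaks sphingosine 1-phosphate, read 6.52, 6.01, 6.50, 6.60 and 6.61 in vehicle and 7.64, 7.76, 7.53, 7.60 and 8.08 at 50 mg/kg, a 2.42-fold rise. Here the 15 mg/kg arrays (7.14 to 7.40) stood between both groups.

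Mnd1, known as a partner in meiotic recombination, rose 3.06-fold, from 7.65 to 8.16 in vehicle to 8.81 to 9.89 (log2 fold change 1.61, SE 0.209, limma adjusted p = 0.00123). Mmgt1, a subunit of the complex that inserts membrane proteins into the ER, rose 2.37-fold, from 9.66 to 10.27 up to 10.97 to 11.40. Iars2, the mitochondrial isoleucyl-tRNA synthetase, rose 2.24-fold, from 7.81 to 8.31 up to 8.81 to 9.68. The sorting nexin Snx10 rose 2.29-fold and Entpd5, a nucleotidase of the ER that helps glycoprotein folding, 2.08-fold, with all 3 of its probe sets called. All 8 genes of these paragraphs passed whichever of the 10 arrays was left out. With the block Snx10 and Entpd5 had adjusted p-values of 0.0828 and 0.101, and the other 6 passed.

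**Figure D2:**
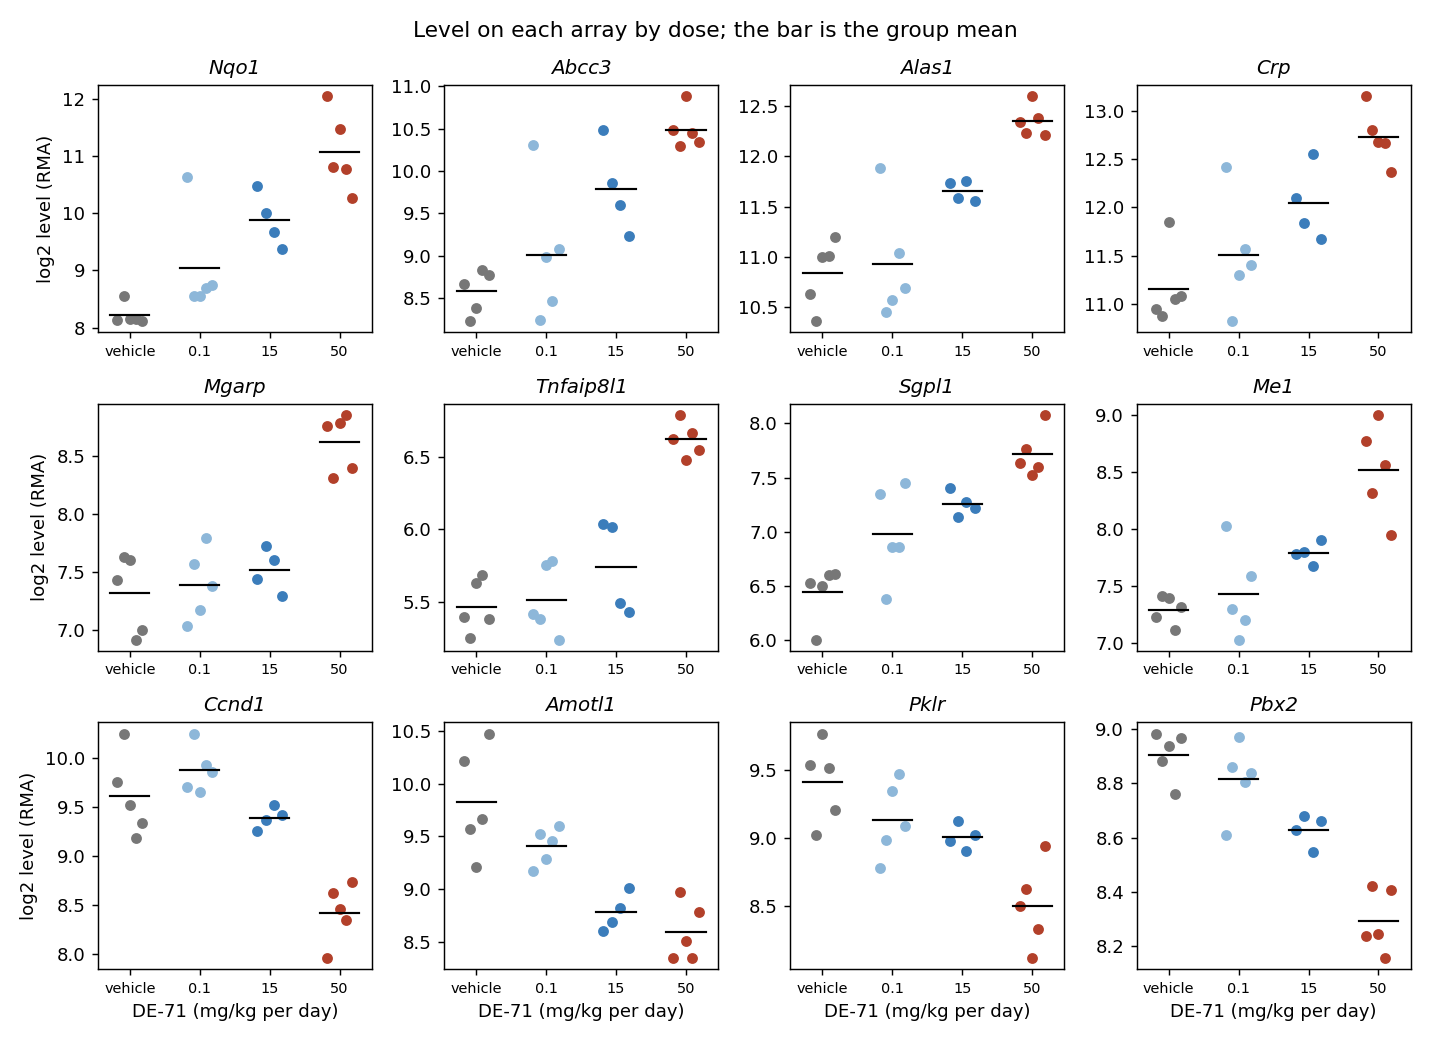
Log2 level (y axis) on each array of 12 genes by DE-71 dose (x axis, mg/kg per day), with a bar at each group mean (n = 5, 5, 4 and 5). At 50 mg/kg the first 8 genes lie above and the last 4 below all vehicle arrays. The group means of Mgarp, Tnfaip8l1 and Ccnd1 at 15 mg/kg lie within 0.28 log2 units of the vehicle means.

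Fallers were fewer and smaller. Gstp3, a pi-class glutathione transferase, fell 2.64-fold, from 11.29, 10.87, 11.18, 11.20 and 12.11 in vehicle to 9.79, 10.65, 9.28, 9.81 and 10.14 at 50 mg/kg (log2 fold change -1.40, SE 0.268, limma adjusted p = 0.0132). Treated replicate 2 came close to the lowest vehicle array. Cyclin D1 (Ccnd1), which takes cells from G1 towards S phase, read 9.75, 10.24, 9.52, 9.18 and 9.33 in vehicle and 7.96, 8.62, 8.46, 8.34 and 8.73 at 50 mg/kg (2.27-fold lower, log2 fold change -1.18, SE 0.176, limma adjusted p = 0.00258). All 3 of its probe sets were called. Amotl1, an angiomotin of cell junctions that binds YAP, read 10.21, 9.57, 9.21, 9.67 and 10.47 in vehicle and 8.35, 8.98, 8.51, 8.35 and 8.78 at 50 mg/kg (2.35-fold lower, limma adjusted p = 0.00363). Only 1 of its 2 probe sets was called. At 15 mg/kg Ccnd1 averaged 9.39 and Amotl1 8.78, so that the first was near vehicle and the second near the treated level.

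Pbx2, Ier2, Kdm6b, Smim3, Rnase4 and Agmat each fell by less than 2-fold. The homeobox factor Pbx2 fell 1.53-fold with little spread, from 8.98, 8.88, 8.94, 8.76 and 8.97 to 8.24, 8.42, 8.24, 8.15 and 8.40 (log2 fold change -0.62, SE 0.0725, limma adjusted p = 0.000893). The immediate early gene Ier2 fell 1.65-fold, from 8.80 to 9.23 down to 8.07 to 8.42, and the histone H3 lysine demethylase Kdm6b fell 1.44-fold, from 8.26 to 8.72 down to 7.77 to 8.06. Smim3, a small membrane protein, fell 1.72-fold. Rnase4, a secreted ribonuclease whose span overlaps that of Ang, fell 1.38-fold, and agmatinase (Agmat) 1.39-fold. Each of these, and Gstp3, Ccnd1 and Amotl1, passed in all 10 fits that left out 1 array. With the block Pbx2, Ccnd1 and Amotl1 passed, and Gstp3, Ier2, Kdm6b, Smim3, Rnase4 and Agmat did not (adjusted p from 0.0532 to 0.0968 in limma). The leptin receptor (Lepr) had the largest fall by its brightest probe set, 3.19-fold (log2 fold change -1.67, SE 0.344, limma adjusted p = 0.021), from 6.74 to 7.81 down to 4.70 to 6.15. Its span overlaps Leprot, 1 of its 7 probe sets was called, and 1 had the opposite sign. With all 7 averaged the log2 fold change was -0.64 and did not pass (limma adjusted p = 0.0591). The call was also lost without treated replicate 1 or control replicate 1 (adjusted p = 0.0623 and 0.0542) and with the block (0.126).

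**Figure D3:**
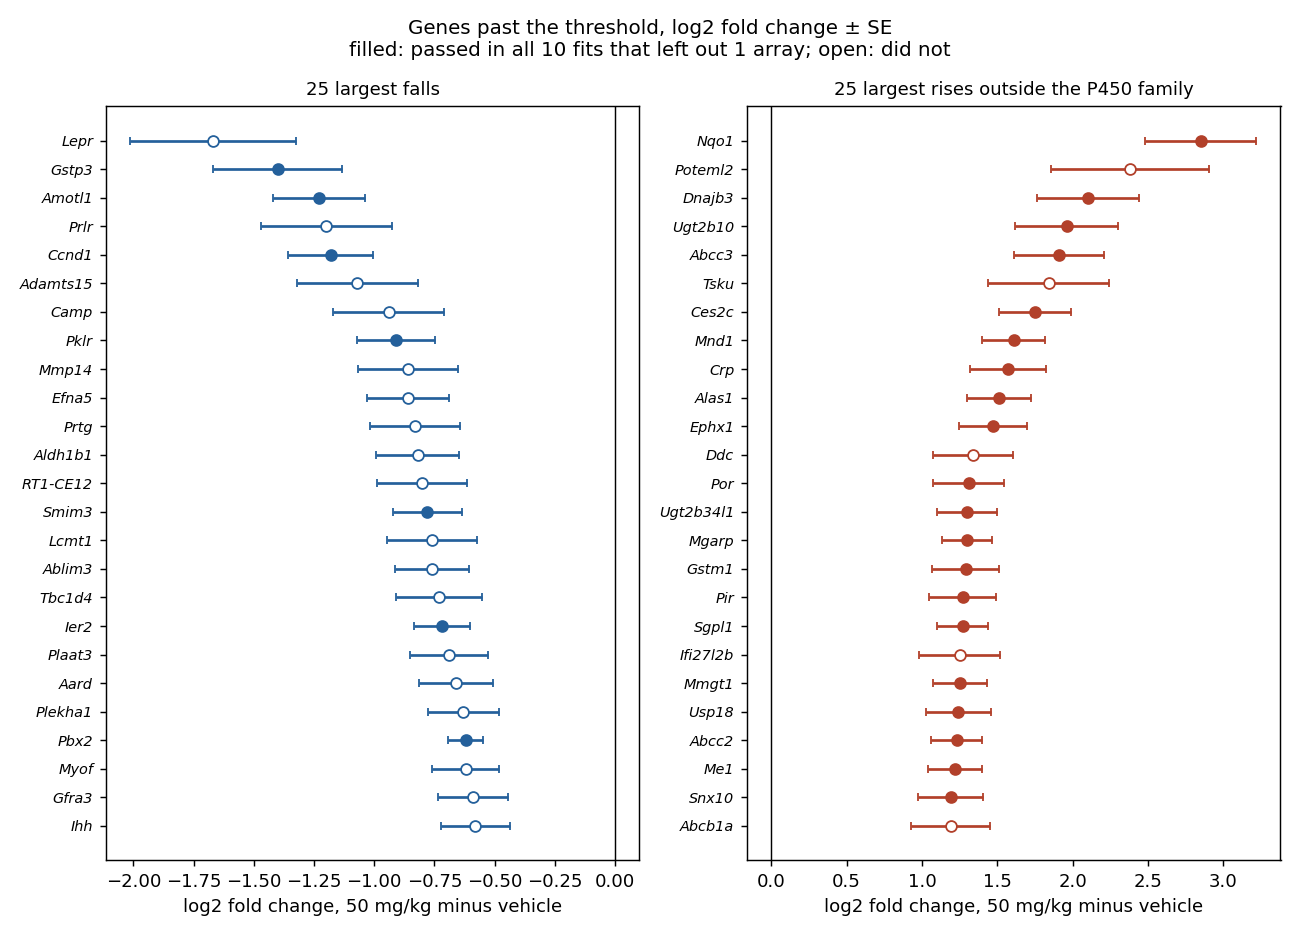
Log2 fold change ± SE (x axis, 50 mg/kg minus vehicle, n = 5 arrays each) of the 25 largest falls and the 25 largest rises outside the P450 family among named genes past the threshold. Filled points passed in all 10 fits that left out 1 array and open points did not. Rises reach 2.85 (Nqo1) and falls -1.67 (Lepr, an open point).

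Genes of the secretory machinery mostly read slightly higher at 50 mg/kg. Over 6 lists, which follow a protein from its entry into the ER to the Golgi, 19 of 223 measured genes were higher (8.52%, against 1.79% of all genes) and none lower. Secretory genes are strongly expressed, and 3.56% of the genes above the median level were called in either direction, against 0.9% below it. The sign was positive in 183 of the 223, with a median log2 fold change of 0.15 against 0.01 over all genes. The count rested on single arrays. It was 4, 7, 14, 9 and 12 without 50 mg/kg replicates 1 to 5, 6, 4, 23, 7 and 4 without vehicle replicates 1 to 5, 14 without the 3 arrays and 1 with the block, where 182 of the 223 were still positive and the median was 0.11.

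By step, entry into the ER held 6 of 36 higher, N-glycan synthesis 3 of 37, ER folding and the unfolded protein response 5 of 51, COPII transport 3 of 44, COPI transport 2 of 23 and Golgi structure none of 32 (9 at an unadjusted p under 0.05 in limma). Srp54a, a subunit of the particle that brings ribosomes to the ER, read 9.47, 9.44, 9.67, 9.59 and 9.50 in vehicle and 9.99, 10.01, 9.87, 10.01 and 9.88 at 50 mg/kg (1.34-fold, log2 fold change 0.42, SE 0.0644, limma adjusted p = 0.00351), and passed also with the block. Only 1 of its 3 probe sets was called. Spcs2, a subunit of signal peptidase, rose 1.34-fold, from 10.23 to 10.52 up to 10.77 to 10.87. Sar1b, the small GTPase that starts COPII coats, rose 1.45-fold, from 11.15 to 11.48 up to 11.75 to 11.93. These 3 genes passed in all 10 fits that left out 1 array. With the block Spcs2 and Sar1b had adjusted p-values of 0.0898 and 0.107. Sdf2l1, an ER chaperone partner and the largest called change of the folding list, rose 1.99-fold, from 8.25 to 9.06 up to 9.19 to 10.23 (limma adjusted p = 0.0184), a call lost without vehicle replicate 1 (0.052) and with the block (0.053). At 15 mg/kg Sdf2l1 averaged 8.68, close to vehicle at 8.59. Chac1, a glutathione-degrading target of the stress factor ATF4, had a log2 fold change of -1.23 (SE 0.559, limma adjusted p = 0.302), while 39 of the 51 genes of that list were positive.

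The proteasome degrades proteins, including those returned from the ER. Of 32 measured genes of its list 7 were higher (21.9%, against 1.79% of all genes) and none lower, and all 32 had a positive sign, with a median of 0.21 against 0.01 over all genes. Of the genes above the median level 3.56% were called in either direction. Psmd14, the lid subunit that removes ubiquitin, read 10.30, 10.31, 10.35, 10.35 and 10.18 in vehicle and 10.93, 10.65, 10.68, 10.83 and 10.78 at 50 mg/kg (1.39-fold, log2 fold change 0.47, SE 0.0644, limma adjusted p = 0.00123). The groups did not overlap. Psma1, Psma5, Psmc5, Psmd12 and Psmd2 rose 1.37-, 1.28-, 1.31-, 1.25- and 1.24-fold, and these 6 genes passed whichever of the 10 arrays was left out. Psmd1 was the seventh (1.36-fold, limma adjusted p = 0.0388), and among these fits passed only without vehicle replicate 3 (0.0595 to 0.106 in the others). The count was 7 without the 3 arrays and 1 (Psmd14) with the block, where all 32 were still positive.

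Few of the secreted proteins themselves were called. Over 5 lists of plasma proteins 3 of 133 measured genes were higher (2.26%, against 1.79% of all genes). In these lists 1 was lower (0.752%, against 0.443%), and the median was 0. C-reactive protein (Crp), which binds phosphocholine on microbes and dying cells, read 10.94, 10.87, 11.84, 11.05 and 11.08 in vehicle and 13.15, 12.80, 12.67, 12.66 and 12.36 at 50 mg/kg (2.97-fold, log2 fold change 1.57, SE 0.252, limma adjusted p = 0.00428). Vehicle replicate 3 stood above its group and still below all treated arrays. It was the 1 member of 32 acute phase proteins that passed, and with the block its adjusted p was 0.053. Orm1, another acute phase protein, had a log2 fold change of 1.35 (SE 0.361, limma adjusted p = 0.0675) with treated arrays from 9.84 to 12.29, and Lcn2 0.84 (SE 0.362, adjusted p = 0.274). None of 25 complement genes and none of 26 apolipoprotein genes passed in limma. At an unadjusted p under 0.05 stood 7 and 5 of them, against 4791 of all 31042 probe sets. Apoa4 had the largest change of the latter, 2.04 on the log2 scale (SE 0.629, limma adjusted p = 0.115), with treated arrays at 8.23 to 9.39 above all vehicle arrays at 6.11 to 7.73.

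Clotting regulators gave the other 2 rises. Protein S (Pros1), a cofactor of protein C, rose 1.51-fold (limma adjusted p = 0.0202), and Serpina10, an inhibitor of factor Xa, 1.49-fold (0.0298). Of the carriers Igfbp2, a binding protein of insulin-like growth factors, was the 1 called, 1.46-fold lower, from 13.63 to 13.99 down to 12.92 to 13.57 (limma adjusted p = 0.0207). Pros1 was lost without treated replicate 1 or 4 or control replicate 1 or 2 (adjusted p 0.0504 to 0.0622), and Igfbp2 without treated replicate 1 or 4 or control replicate 4 or 5 (0.0565 to 0.0622). Serpina10 passed in 3 of the 10 fits, those without treated replicate 5 or control replicate 3 or 4 (0.0552 to 0.0926 in the others). None of the 3 passed with the block. The 5 lists held 7 higher genes without 50 mg/kg replicate 5 and 1 to 3 in the other fits that left out 1 array. Albumin and transthyretin stood at 15.03 and 14.53 in vehicle, near the top of the scale at 15.06, where such arrays show small changes poorly.

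**Figure D4:**
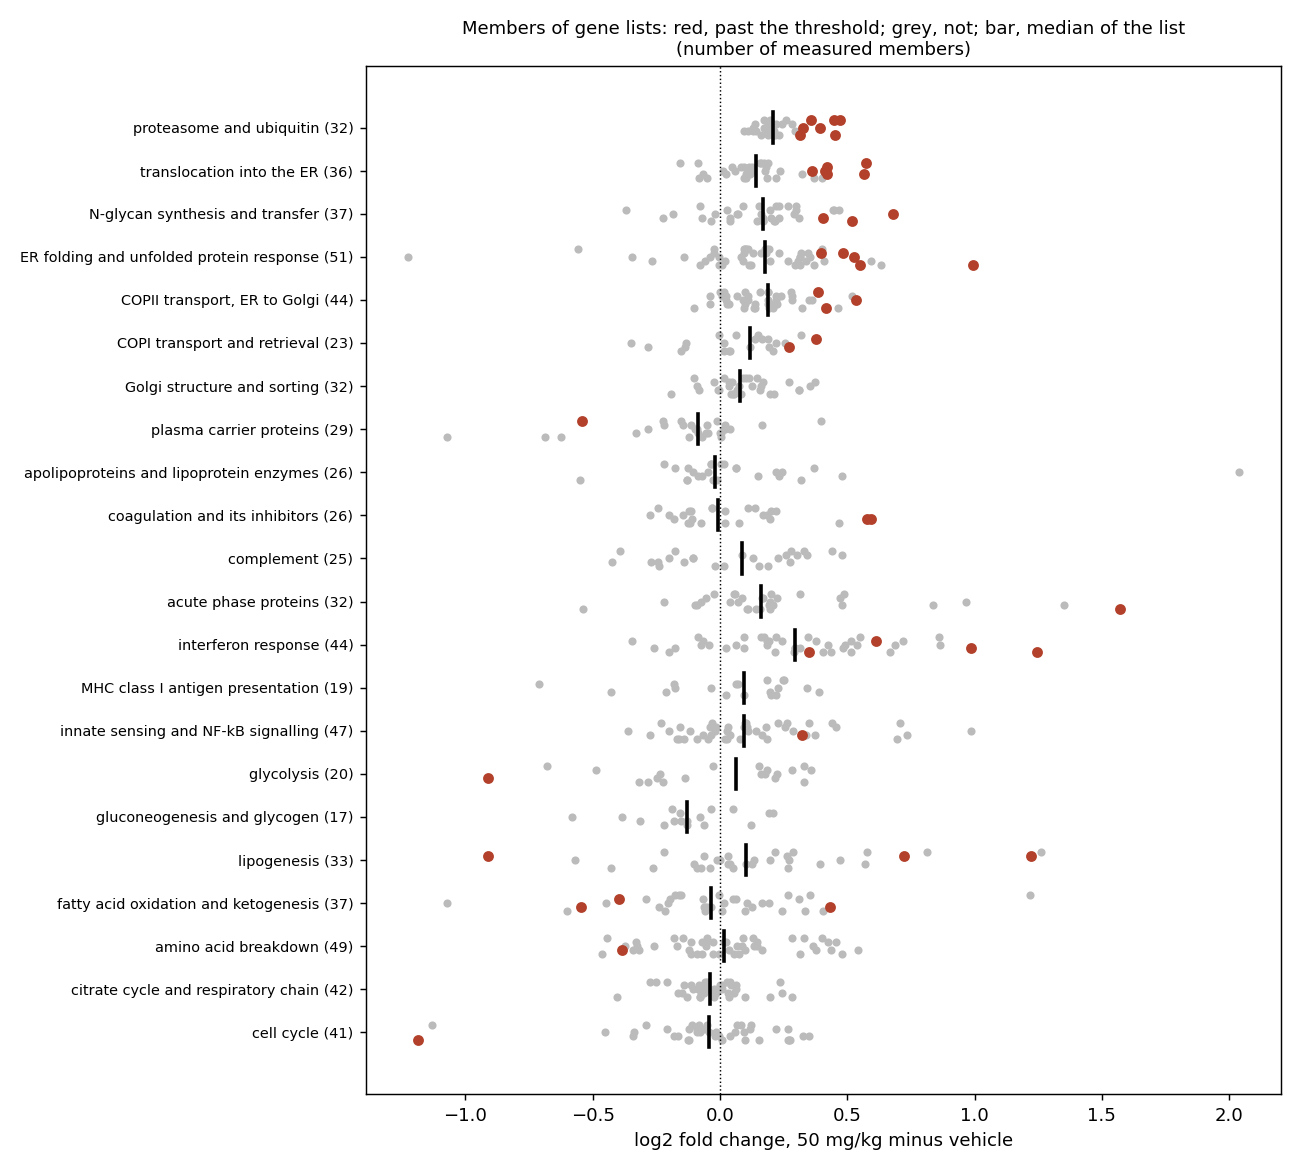
Log2 fold change (x axis, 50 mg/kg minus vehicle) of each measured member of 22 gene lists, with members past the threshold in red, the others in grey and a bar at the list's median. The proteasome list lies wholly to the right of 0, the lists of the secretory machinery have medians from 0.08 to 0.19, and those of plasma proteins from -0.09 to 0.16.

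In energy and lipid metabolism single genes were called. Over 8 lists 5 of 205 measured genes were higher (2.44%, against 1.79% of all genes) and 3 lower (1.46%, against 0.443%). The median was 0.01. The lower count was 1, 3, 2, 1 and 4 without 50 mg/kg replicates 1 to 5 and 1, 2, 3, 2 and 2 without vehicle replicates 1 to 5, and with the block 1 gene was higher and none lower. Liver pyruvate kinase (Pklr), the last step of glycolysis, fell 1.88-fold, from 9.54, 9.02, 9.77, 9.52 and 9.20 to 8.50, 8.63, 8.11, 8.33 and 8.94 (log2 fold change -0.91, SE 0.161, limma adjusted p = 0.0085). Treated replicate 5 lay just under the lowest vehicle array. It was the 1 of 20 glycolysis genes that passed, and both its probe sets were called. Me1, in the lists of NADPH supply and lipogenesis, rose as given above. Insig2, which holds sterol sensors in the ER, rose 1.88-fold, from 8.91 to 9.22 up to 9.52 to 10.29, and was the 1 of 22 cholesterol genes. Cpt2, which loads long-chain fatty acids inside the mitochondrion, rose 1.35-fold, with 10.15 to 10.48 in vehicle against 10.59 to 10.74. At 15 mg/kg Cpt2 averaged 10.23, at the vehicle level. In the same list Acadm, which oxidises medium chains, fell 1.32-fold (limma adjusted p = 0.0262).

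Pklr, Insig2 and Cpt2 passed in all 10 fits that left out 1 array, and had adjusted p-values of 0.0821, 0.0841 and 0.0995 with the block. Acadm passed in 4 of the 10 and was lost without treated replicate 1, 3 or 4 or control replicate 1, 4 or 5 (0.0519 to 0.0723) and with the block (0.0821). None of 42 genes of the citrate cycle and respiratory chain and none of 17 of gluconeogenesis passed in limma (6 and 4 at an unadjusted p under 0.05). The desaturase Scd had a log2 fold change of 1.26 (SE 0.341, limma adjusted p = 0.0711). Of 24 bile acid genes 1 passed, Akr1c14, a hydroxysteroid dehydrogenase, 1.81-fold higher with all 3 probe sets called and an adjusted p of 0.0942 with the block. Cyp7a1, the rate-limiting enzyme of bile acid synthesis, had 0.52 (SE 0.439, limma adjusted p = 0.599).

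Of 25 genes of serine, folate and nucleotide synthesis 3 were higher (12%, against 1.79% of all genes) and none lower. Shmt2, the mitochondrial enzyme that splits serine into glycine and a one-carbon unit, read 9.72, 9.63, 10.06, 9.86 and 9.76 in vehicle and 10.93, 10.56, 10.76, 10.67 and 10.58 at 50 mg/kg (1.86-fold, log2 fold change 0.89, SE 0.14, limma adjusted p = 0.00369), and passed in all 23 other fits. Mthfd1, which interconverts folates in the cytosol, rose 1.41-fold (limma adjusted p = 0.0209), a call lost without treated replicate 1 or control replicate 1 or 2 (0.0646, 0.0533 and 0.0562) and with the block (0.0995). The third gene was Dhodh of pyrimidine synthesis (1.40-fold, limma adjusted p = 0.0269). Dhodh passed without treated replicate 3 or 5 or control replicate 1 or 3, and had 0.0558 to 0.076 without the other arrays. The count was 1 without 50 mg/kg replicate 1, 1 without vehicle replicate 2 and 1 with the block. Of 49 genes of amino acid breakdown 1 passed, glutamate dehydrogenase (Glud1), 1.30-fold lower (limma adjusted p = 0.0381). It passed without treated replicate 2 or 5 or control replicate 2, and had 0.0569 to 0.098 without the other arrays.

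Among immune genes most calls fell in the interferon list. Of 44 measured interferon response genes 4 were higher (9.09%, against 1.79% of all genes) and none lower, and 36 had a positive sign, against 51.5% of all genes. The median was 0.29 against 0.01 over all genes. Usp18, which takes the ubiquitin-like ISG15 off proteins and damps interferon signalling, read 5.63, 5.49, 6.08, 6.31 and 6.11 in vehicle and 6.88, 7.44, 7.52, 7.48 and 6.51 at 50 mg/kg (2.37-fold, log2 fold change 1.24, SE 0.215, limma adjusted p = 0.00721). It passed in all 10 fits that left out 1 array and had 0.0752 with the block. Isg15 itself rose 1.98-fold, from 5.77 to 6.54 up to 6.68 to 7.84 (limma adjusted p = 0.0423), and among the 10 fits passed only without 50 mg/kg replicate 5 (0.0594 to 0.11 in the others). Oas1a and Eif2ak2, sensors of double-stranded RNA, rose 1.53- and 1.27-fold (limma adjusted p = 0.0402 each). Oas1a passed without treated replicate 1 or 5 or control replicate 3 and Eif2ak2 without treated replicate 5 or control replicate 3, with adjusted p-values up to 0.106 and 0.109 without the other arrays. The list held 2, 1, 1, 1 and 6 higher genes without 50 mg/kg replicates 1 to 5, 1, 1, 3, 1 and 2 without vehicle replicates 1 to 5, 1 without the 3 arrays and none with the block. With the block 39 of the 44 were still positive. The 15 mg/kg arrays averaged 6.79 in Usp18 and 6.93 in Isg15, between vehicle and 50 mg/kg.

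None of 19 genes of class I and none of 11 of class II antigen presentation passed in limma (5 and 0 at an unadjusted p under 0.05), and 1 of 47 genes of innate sensing did, the kinase Irak1 (1.25-fold, limma adjusted p = 0.0396). Irak1 passed without treated replicate 2 or control replicate 3, and had 0.057 to 0.118 without the other arrays and 0.177 with its probe sets averaged. The chemokine Cxcl1 had a log2 fold change of 0.98 (SE 0.439, adjusted p = 0.292), with all treated arrays (8.10 to 8.89) above all vehicle arrays (6.71 to 8.06). RT1-CE12, of the class I cluster, fell 1.74-fold (limma adjusted p = 0.0388), but its span overlaps RT1-CE13 and RT1-CE14, near-identical copies may share its probes, and it passed only without treated replicate 3 or control replicate 3 (0.0633 to 0.0938 in the other 8 fits).

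Hormone and growth genes gave few calls. Of 27 genes of growth hormone, prolactin and insulin signalling 3 were lower (Lepr, Prlr and Igfbp2; 11.1%, against 0.443% of all genes) and none higher, with a median of -0.21 against 0.01 over all genes. The lower count was 0, 2, 2, 1 and 2 without 50 mg/kg replicates 1 to 5, 1, 3, 3, 2 and 1 without vehicle replicates 1 to 5, 3 without the 3 arrays and 0 with the block. The prolactin receptor (Prlr) fell 2.29-fold, from 8.76 to 10.25 down to 7.41 to 8.23 (limma adjusted p = 0.0342), with all 3 probe sets called. It passed in the 3 fits without vehicle replicate 2, 3 or 4, and had 0.0527 to 0.0793 without the other arrays and 0.19 with the block. Of 41 cell cycle genes Ccnd1 was the 1 that passed, and the median of that list was -0.04. Thyroid hormone handling held Me1 and Ugt2b1 higher, 2 of 16 (12.5%, against 1.79% of all genes), both also named above. Serpina7, the thyroxine-binding globulin, had a log2 fold change of -0.62 (SE 0.194, limma adjusted p = 0.117). None of 21 genes of retinoid and vitamin handling passed in limma (3 at an unadjusted p under 0.05).

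Marker lists of other cells were read in full, and in whole liver fewer cells of a type and less RNA per cell cannot be told apart. In the 13 cell type lists 1 marker passed, the neutrophil granule peptide Camp, 1.92-fold lower (limma adjusted p = 0.0457). It was 1 of 11 measured neutrophil markers (9.09%, against 0.443% of all genes called lower). Among the 10 fits Camp passed only without vehicle replicate 1 (0.0623 to 0.112 in the others). The mean log2 level of the neutrophil markers ran from 9.49 to 10.42 in vehicle and from 9.55 to 10.12 at 50 mg/kg over 11 markers, and the erythroid level from 8.94 to 10.84 and from 8.96 to 10.93 over 11 markers. Eosinophil and mast cell transcripts (9 markers) ran from 5.07 to 6.35 in vehicle and from 5.08 to 5.70 at 50 mg/kg. Macrophage (9.83 to 10.46, then 9.77 to 10.14) and lymphocyte transcripts (4.84 to 5.25, then 5.07 to 5.24) overlapped between the groups. All 18 stellate cell and fibroblast markers had a negative sign, with a median of -0.34 and levels of 8.55 to 10.06 in vehicle and 8.32 to 9.35 at 50 mg/kg. Levels were highest on the arrays high in skeletal muscle markers. These were vehicle replicates 1 and 5 (10.06 and 9.34) and 50 mg/kg replicates 2 and 3 (9.32 and 9.35). Also negative were 10 of 10 kidney, 20 of 21 muscle, 14 of 15 pancreas, 10 of 11 erythroid and 11 of 13 macrophage markers. So were 9 of 11 neutrophil, 8 of 9 bile duct, 7 of 8 megakaryocyte and platelet, and 6 of 9 eosinophil and mast cell markers. In contrast 12 of 14 lymphocyte, 9 of 14 hepatocyte and 7 of 13 liver endothelial markers were positive. Of all genes 51.5% were positive.

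Transcripts of neighbouring organs were uneven. Exocrine pancreas markers (15) stood at 8.11 in vehicle replicate 2 and 6.94 in vehicle replicate 4, and at 4.74 to 4.89 in the other 8 arrays. Kidney markers (10) stood at 9.23 in vehicle replicate 2 and 6.85 in 50 mg/kg replicate 3. Skeletal muscle markers (21) stood at 10.41 and 8.27 in vehicle replicates 1 and 5, at 8.76 and 8.47 in 50 mg/kg replicates 2 and 3, and at 4.74 to 5.36 elsewhere. The part of these cells in the changes of other genes was not tested beyond the fits without the arrays concerned.

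**Figure D5:**
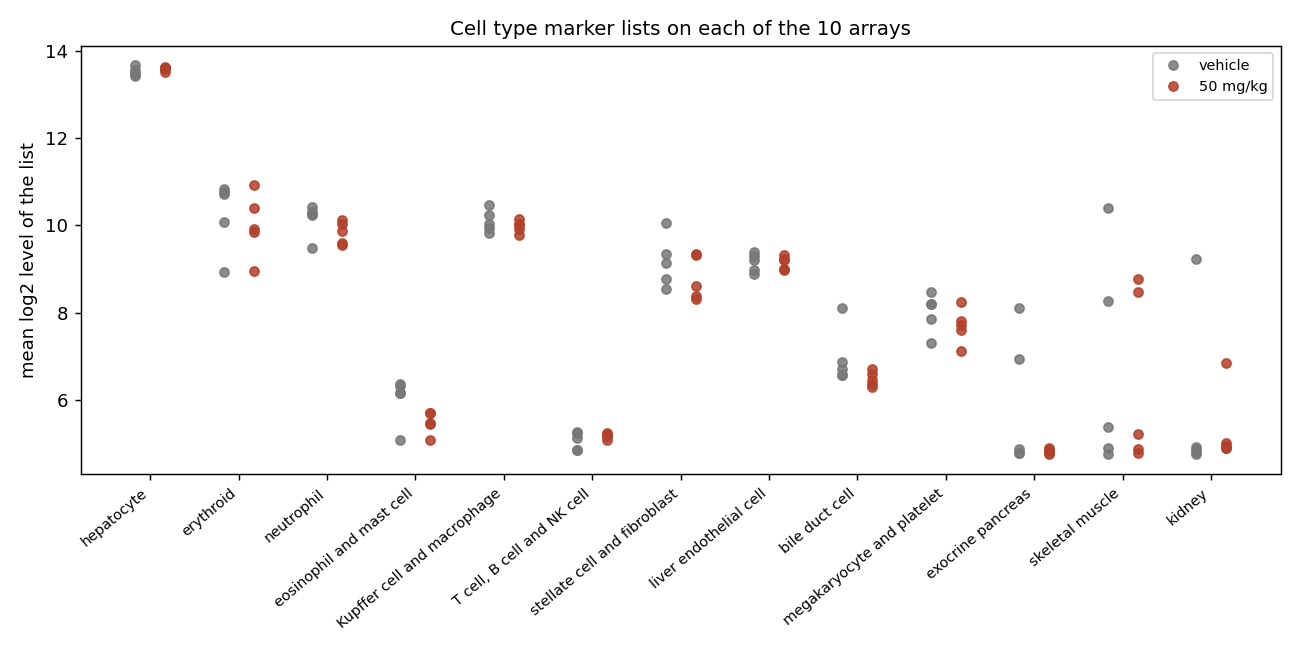
Mean log2 level (y axis) of each cell type marker list on the 5 vehicle arrays (grey) and the 5 arrays at 50 mg/kg (red). Hepatocyte markers lie at 13.44 to 13.68 on all 10 arrays. Pancreas markers are high on vehicle replicates 2 and 4 only, and muscle and kidney markers on some arrays of both groups.

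The lower doses were set beside 50 mg/kg with the same vehicle arrays, so these comparisons share their control. At 15 mg/kg no probe set passed in limma (0% of 31042, with 3083 at an unadjusted p under 0.05). Some alternatives called a few there, 7 with the block, 10 without the 3 arrays and 14 with both. In 50 against 15 mg/kg none passed (0%, with 2417 unadjusted). The leading genes read between vehicle and 50 mg/kg at 15 mg/kg, with means of 9.88 for Nqo1, 9.79 for Abcc3, 11.66 for Alas1, 12.04 for Crp and 8.86 for Mnd1. Among the named genes Mgarp, Tnfaip8l1, Cpt2 and Ccnd1 had the smallest unadjusted p against 15 mg/kg, with log2 differences of 1.10, 0.88, 0.45 and -0.97 (50 minus 15 mg/kg) and adjusted p-values of 0.0787, 0.0787, 0.189 and 0.189 in limma.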

How the data were processed

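The deposited values are log2 levels per probe set. Per the submitters' processing notes the authors made them with RMA, which corrects background, normalizes quantiles and summarises probes, with the version not given in the sources used here. Folds are compressed by RMA near both ends of the range (2.395 to 15.058). From these values 57 control probe sets were left out. The platform annotation gave 20826 probe sets 1 symbol, 436 several and 9780 none, and 20758 symbols were updated by gene ID through RefSeq. Each gene is represented by its brightest probe set, by the mean over 19 arrays. Spans of further named genes overlap neighbours in RefSeq, such as Entpd5 with Coq6 and Pklr with Hcn3.

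limma 3.58.1 in R 4.3.3 fitted 1 mean per dose group over all 19 arrays (15 residual and 2.78 prior degrees of freedom), where the submitters used R/maanova. SE and adjusted p are from that fit, two-sided, with a threshold of 0.05. The fit was tested on simulated data with independent errors and no differences between whole arrays. That test therefore does not bear on the shifts between fits given above. Named genes are the 40 largest rises and 40 largest falls that passed with separate groups, all called members of 50 gene lists, and up to 3 members per list that did not pass. The comparison, members and lists were chosen with earlier results of these data known. Alternatives were a median level filter, trend and robust variance settings, the 10 arrays alone, the array number as a covariate or as an early and late block, a replicate block, median centring, cyclic loess, array weights, all probe sets of a gene averaged, and arrays left out. The number of arrays limits the precision. Deviations of same-numbered 50 mg/kg and vehicle replicates from their group means had correlations from -0.534 to 0.496. Pairs of unlike number had -0.565 to 0.658.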

Additional observations from a re-analysis of the deposited data

Results flagged for a closer look

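In 23 of 201 tests of 5 arrays each, 1 array stood far from the 4 others of its group by Dixon's criterion. Chance gives about 1 in 20 for items chosen blind, but the tested genes and lists were chosen with these data known. Umod, for example, was named above for its high level on vehicle replicate 2. The 23 flagged tests therefore cannot be set against that rate. Vehicle replicate 2 was the array in 8 of them, with log2 levels of 8.55 in Nqo1, 9.58 in Umod, 6.01 in Sgpl1, 6.51 in Cyp7a1, 4.93 in Cxadr and 12.06 in Serpina7, and with list means of 8.11 in bile duct and 9.23 in kidney markers. Treated replicate 3 stood apart in 4 (6.44 in Umod, 7.59 in Dhodh, 7.41 in Prlr, and 6.85 as the mean of the kidney markers), and treated replicate 1 in 1 (6.37 in Chac1).

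Vehicle replicate 1 was low in Camp (9.97) and in the means of the neutrophil (9.49) and the eosinophil and mast cell markers (5.07). Vehicle replicate 3 was high in Crp (11.84) and Cpt2 (10.48), and in both it still read below all 5 treated arrays. Vehicle replicate 5 stood apart in Gstm1 (11.37), Psmd14 (10.18) and Prlr (10.25), and vehicle replicate 4 in Pgrmc1 (12.48). In the low dose group the library labelled 0.1 mg/kg replicate 1 read 14.06 in Cyp1a1.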

How the results depend on the processing

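The count of 499 called probe sets (380 higher, 119 lower) was 57 (52 and 5) with low and high array numbers as a block, 216 (157 and 59) with that block and without the 3 arrays that stood apart, 171 (148 and 23) with the array number as a covariate, and 921 (631 and 290) with array weights. The lower count alone was 196 with the filter at the median level, 75 with the 10 arrays alone and 63 with arrays centred on their medians. Leaving out 1 array gave 178 to 593 called probe sets, 155 to 451 higher and 23 to 142 lower. The other alternatives stayed within 1.5 times of these counts. The replicate block gave 511 (363 and 148), with 409 of the 499 shared. Between 50 mg/kg and vehicle, same-numbered replicates deviated together no more than the range of other pairs. In 15 mg/kg against vehicle, where none passed, 4 did with the filter at the median level, 8 with the array number as a covariate, 7 with the block, 13 with array weights, 11 without 0.1 mg/kg replicate 1, 10 without the 3 arrays and 14 with the block and without them. In 50 against 15 mg/kg limma called none under any alternative that could give a value. Of 77 genes named in the text that passed, Cyp1b1 not counted, 25 passed in all alternatives that included them. None of these 77 changed sign. The fits without the 3 arrays, and the block without them, were chosen after the data had been seen. The cause of these shifts was not tested. The Umod difference of -0.59 (not called) read 0.468 without vehicle replicate 2, 0.468 without the 3 arrays, 0.287 with the block added, and -1.01 without 50 mg/kg replicate 3. With 5 arrays a group, of unstated origin, small changes in weak or saturated probe sets cannot be judged.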

Other observations

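Several further genes were among the largest changes and did not pass in all 10 fits that left out 1 array. Poteml2 rose 5.19-fold, from 4.39 to 6.58 up to 7.13 to 9.03 (limma adjusted p = 0.0298, and 0.0602 to 0.0936 without treated replicate 1, 2 or 3 or control replicate 4 or 5). Tsku, a secreted leucine-rich protein, rose 3.57-fold, from 8.08 to 9.72 up to 9.96 to 10.92 (adjusted p = 0.0298, with vehicle replicate 4 the highest control). It was lost without treated replicate 1, 3 or 4 or control replicate 1, 2 or 5 (0.0688 to 0.0807). Ddc, which makes dopamine and serotonin from their precursors, rose 2.53-fold, from 8.65 to 9.39 up to 10.02 to 10.89 (0.0161, and 0.0553 without 50 mg/kg replicate 1). The cell adhesion protein Cxadr rose 2.09-fold, from 4.93 to 5.95 up to 6.47 to 7.07 (0.0163, and 0.0549 without 50 mg/kg replicate 1).

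Among the fallers Efna5, a ligand of Eph receptors, went from 7.64 to 8.55 down to 7.00 to 7.49 (1.82-fold lower, limma adjusted p = 0.0163, and 0.0553 without 50 mg/kg replicate 1), with 1 of its 2 probe sets called. Ablim3, an actin-binding protein, fell 1.70-fold (0.0188, and 0.0623 and 0.057 without treated replicate 1 or control replicate 5, and 0.0972 with its probe sets averaged). The membrane progestin receptor Paqr7 fell 1.48-fold (0.0195, and 0.0503 to 0.0589 without treated replicate 1 or 4 or control replicate 1 or 4). With low and high array numbers as a block none of these 7 genes passed (adjusted p-values from 0.053 to 0.177).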
